A study of Homo sapiens with 40 samples.

Results

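NCIH520 is a human lung cancer cell line that the authors' row labels class as LUSC, lung squamous cell carcinoma. The measurements described here are its transcriptional response to GSK3368712, labelled GSK712 in the sample titles, an inhibitor of type I protein arginine methyltransferases. They were taken as all genes with values in the NCIH520 rows of the authors' deposited table of comparisons. These were 14117 genes, out of 19280 with values in at least 1 line and 58336 gene IDs in the table. The whole series compared the inhibitor with DMSO, the solvent control, in 10 non-small cell lung cancer lines with 2 libraries per arm, 40 libraries in all. NCIH520 contributed 4 of them: 2 labelled DMSO and 2 labelled GSK712, all from the parental line with no other agent or genetic change named. The titles end in D5 and the row label carries the number 2000, neither of which is spelled out. Nothing in the labels tells whether the 2 libraries per arm came from separate cultures, so the authors' p-values measure only the spread between these libraries, which may be technical. NCIH520 is 1 established line grown without immune or stromal cells, and it stands for itself only.

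Type I arginine methyltransferases, of which PRMT1 carries out most of the cellular activity, place asymmetric dimethyl marks on arginines. Their substrates include histone H4 and many RNA-binding proteins with arginine- and glycine-rich stretches, which links the enzymes to transcription, splicing and RNA processing. The series title places the work in the question of whether blocking PRMT1 favours an immune response against tumours, so genes of interferon signalling and antigen presentation were described along with metabolism, proliferation, lineage and RNA genes.

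The squamous label was checked against marker genes, with levels given as mean normalized counts over the 4 libraries per kilobase of the longest annotated transcript. SOX2, a transcription factor amplified in many squamous carcinomas, stood at 7979.9 by the authors' deposited table, and the squamous genes TRIM29 and DSC3 at 444 and 111. The other 8 of 11 squamous markers, among them TP63, KRT5, KRT6A and KRT14, had no values, and the table leaves out genes below the authors' expression filter. Of these markers SOX2 was high, while TP63 and the basal keratins had no values, and the line is called by its name below. SOX2 does not set the subtypes apart in this series. NCIH522, labelled LUAD (lung adenocarcinoma), listed it at 5659.6 and no other squamous marker, and PC9, also LUAD, listed 6 of 11. Of 6 glandular lung markers NCIH520 listed 3, KRT7, MUC1 and NKX2-1, at a summed 311.1. All 5 general epithelial markers were listed, with KRT8 at 15710.0 and EPCAM at 13924. Of 7 neuroendocrine markers, INSM1, NCAM1, SYP and DLL3 were listed, and others, CHGA and NEUROD1 among them, were not. Leukocyte markers were represented by LYZ alone, at 48.8 (1 of 12), fibroblast markers by COL1A1 at 66.6 (1 of 9) and endothelial markers by none of 6. FGFR1, a receptor gene known to be amplified in this line, stood at 11856.

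GSK3368712 changed close to 1 gene in 4 in NCIH520, mostly by small amounts. At an adjusted p of at most 0.05 (the authors' DESeq2 test), 1616 genes were higher with the inhibitor (11.4% of those listed) and 1743 were lower (12.3%), or 3359 in all (23.8%). Fold changes are log2 values of GSK3368712 over DMSO throughout, with the direction read from the order of names in the row label, and errors are the authors' standard errors. Of the called genes, 63.6% moved by less than 0.5. Changes of at least 1 numbered 173 upward and 117 downward in the authors' deposited table, and changes of at least 2 numbered 24 and 6. The median over all listed genes was 0.005. Precision depended on expression: the median standard error was 0.324 in the lowest quartile of genes by mean count and 0.078 in the highest, where 29.3% of genes were called against 13.1% in the lowest. A low gene in these libraries therefore had to move several times farther to be called.

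**Figure D1:**
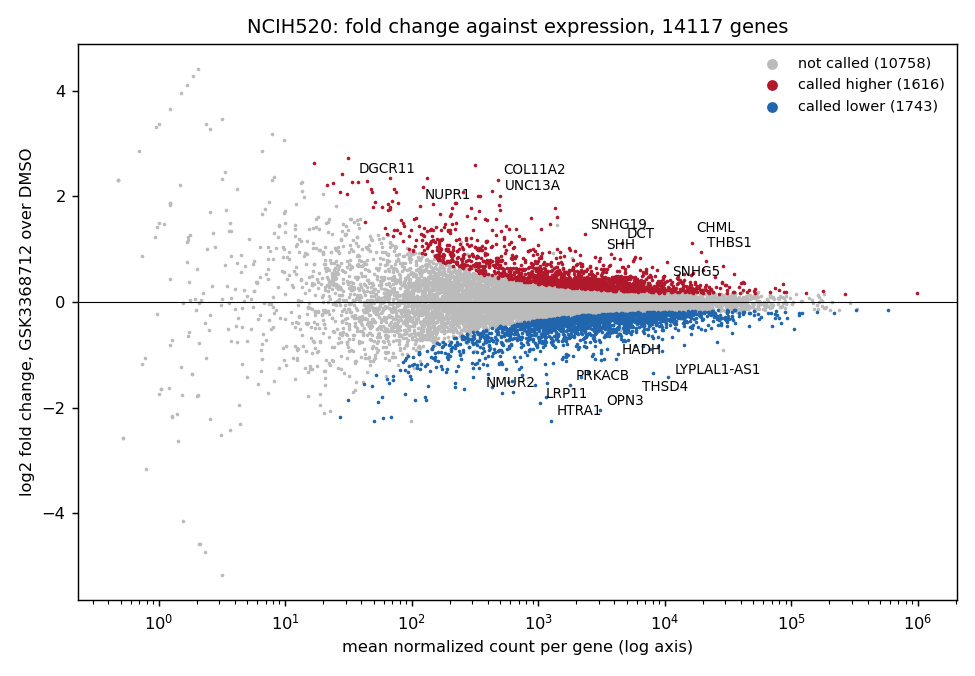
Log2 fold change of GSK3368712 over DMSO (vertical axis) against mean normalized count (horizontal log axis) for the 14117 genes listed in NCIH520, with genes called higher in red (1616), called lower in blue (1743) and others in grey. Most called genes lie within 0.5 of 0, and the labelled genes OPN3, HTRA1, THSD4 and CHML stand away from genes of like expression.

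The steepest fall by test statistic was that of OPN3, a non-visual opsin. It fell by 2.04 ± 0.10 (adjusted p 5.56e-87, authors' deposited table), from about 4980.4 normalized counts with DMSO to 1208 with the inhibitor. These group levels, here and below, were computed from the deposited mean and fold change and carry no error of their own. CHML, which encodes a Rab escort protein, lies inside OPN3 on the same strand (OPN3 chr1:241590102-241677376 and CHML chr1:241628853-241640254, both minus strand, GRCh38) and rose by 1.12 ± 0.09, from about 10352 to 22577. Their exons overlap, so reads could be shared between them, and how far the pair's opposite movement depends on their assignment was not tested. In the other lines with values in the authors' deposited table, OPN3 was called lower in 9 of 9 and CHML called higher in 7 of 8. Both genes were on a list chosen on earlier results of these data, so these counts are no independent support.

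HTRA1, a secreted serine protease, fell by 2.25 ± 0.13 in the authors' deposited table (adjusted p 3.69e-67, authors' DESeq2 test). The implied levels were 2085 with DMSO and 439.9 with the inhibitor. PRKACB, which encodes a catalytic subunit of the kinase PKA, fell by 1.57 ± 0.11 (adjusted p 4.73e-44, authors' deposited table), from about 2653 to 891, and LRP11, a transmembrane protein, fell by 1.91 ± 0.14. THSD4, a protein of the microfibril matrix, fell by 1.34 ± 0.08 from an implied 11612 to 4584 normalized counts, and SMOC2, a secreted calcium-binding protein, fell by 1.42 ± 0.13 in the authors' deposited table. NMUR2, the receptor for neuromedin U, was listed in none of the 9 other lines and fell by 1.53 ± 0.13, from about 1755 to 608. In bulk RNA, fewer cells with a transcript and less of it per cell cannot be told apart.

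Further large falls were those of HADH and CPT2, which act in mitochondrial fatty acid oxidation, at 1.08 ± 0.08 and 1.05 ± 0.11 below DMSO in the authors' deposited table. IDH2, the mitochondrial isocitrate dehydrogenase that makes NADPH, fell by 1.02 ± 0.10, from an implied 3560.3 to 1758 normalized counts. Its fold changes in the 9 other lines were between -0.77 and -0.12 in the authors' deposited table, so NCIH520 had the lowest value of the 10. IDH2 was named for its large fall in NCIH520, which favours such a rank. TYSND1, a protease that processes peroxisomal enzymes, fell by 1.33 ± 0.11, and PGLS, of the pentose phosphate pathway, by 1.11 ± 0.11. CENPH, a kinetochore protein, fell by 1.03 ± 0.11 and ATG2B, a lipid transfer protein of autophagy, by 1.05 ± 0.16 in the authors' deposited table. Of the non-coding genes, LYPLAL1-AS1 fell by 1.42 ± 0.07, from about 15305 to 5712 normalized counts, and was listed in 1 other line only. OLMALINC, TMPO-AS1 and KDM4A-AS1 fell by 1.09, 1.71 and 1.37 in the authors' deposited table. The strand setting of the authors' quantification was not given in the sources used here, so reads of the antisense genes and their partners may be mixed.

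Among the rises were ligands, ion channel and presynaptic genes and several regulators of RNA and signalling. THBS1, the matrix glycoprotein thrombospondin 1, had the largest test statistic among rises in the authors' deposited table: it rose by 0.94 ± 0.07 (adjusted p 1.37e-44), from an implied 13342 to 25596 normalized counts. SHH, the Sonic hedgehog ligand, rose by 0.86 ± 0.09 (adjusted p 1.32e-21, authors' deposited table), from about 4095 to 7427. It was listed in 3 other lines, where it lay between -1.16 and 0.14 and was called lower in 1. PTHLH, the parathyroid hormone-related protein made by many squamous tumours, rose by 0.87 ± 0.13. DCT, a pigment-cell enzyme listed in 1 other line, rose by 1.12 ± 0.11 from about 2880 to 6241 normalized counts. The presynaptic gene UNC13A rose by 2.02 ± 0.20 and the collagen gene COL11A2 by 2.31 ± 0.22 in the authors' deposited table, from about 160.1 normalized counts in COL11A2 and 196 in UNC13A. ITPR1, a calcium channel of the endoplasmic reticulum, rose by 1.01 ± 0.11, while in 7 other lines it ran from -2.24 to 1.33. KSR1, a scaffold of RAF and MEK, rose by 0.98 ± 0.12, SPEN, a transcriptional repressor, by 0.78 ± 0.08, and RBM3, a cold-inducible RNA-binding protein, by 0.84 ± 0.09 in the authors' deposited table.

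**Figure D2:**
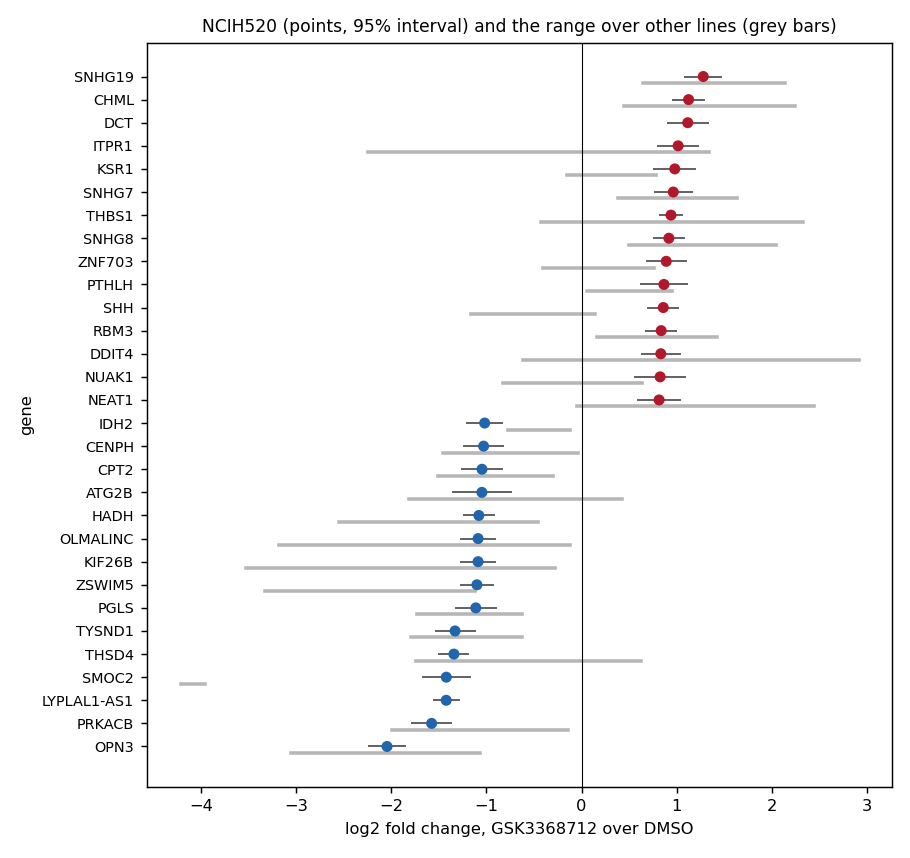
Log2 fold change in NCIH520 (points, with 95% intervals from the authors' standard errors) for the 15 largest rises and 15 largest falls among called genes at or above the line's median expression, and the range over the other lines that list the gene (grey bars, absent for genes in 1 other line). SHH, KSR1, NUAK1 and ZNF703 lie above the range of the other lines, IDH2 lies below it, and SMOC2 fell less than in both other lines that list it. The genes were chosen by their fold changes in NCIH520, which favours values outside that range, and SHH and SMOC2 are listed in few other lines.

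Host transcripts of small nucleolar RNAs (snoRNAs) rose. These non-coding RNAs carry snoRNAs in their introns, and many of them, like ribosomal protein genes, begin transcription in a pyrimidine-rich start element. Of 25 listed host and nuclear long RNAs, 18 were called higher (72%, against 11.4% of all genes) and none lower, with a median of 0.52 against 0.005 over all genes. The windows below show the annotated start of 8 called hosts, chosen because they rose and, apart from SNHG7, hold the letters CTTT close to the start, as cytosolic ribosomal protein genes often do. Each gives 20 bases before and 30 bases from the start in RefSeq on GRCh38.p14, with CTTT in capitals where it begins within 10 bases of the start.
SNHG19 (chr16:2155329-2155378, minus strand): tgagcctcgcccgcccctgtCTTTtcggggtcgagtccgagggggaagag
SNHG7 (chr9:136728155-136728204, minus strand): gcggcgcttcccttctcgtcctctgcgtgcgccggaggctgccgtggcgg
SNHG8 (chr4:118278742-118278791, plus strand): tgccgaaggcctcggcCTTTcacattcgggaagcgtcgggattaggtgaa
SNHG5 (chr6:85678704-85678753, minus strand): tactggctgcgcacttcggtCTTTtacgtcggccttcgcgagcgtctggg
SNHG12 (chr1:28581844-28581893, minus strand): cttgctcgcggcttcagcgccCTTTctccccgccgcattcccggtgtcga
ZFAS1 (chr20:49278622-49278671, plus strand): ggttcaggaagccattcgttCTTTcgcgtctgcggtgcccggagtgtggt
SNHG4 (chr5:139274081-139274130, plus strand): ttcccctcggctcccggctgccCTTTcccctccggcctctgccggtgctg
SNHG16 (chr17:76557744-76557793, plus strand): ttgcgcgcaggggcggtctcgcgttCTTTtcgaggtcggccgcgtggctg

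Of these hosts, SNHG19 rose most, by 1.28 ± 0.10 (adjusted p 3.45e-32, authors' deposited table), from about 1368 to 3319 normalized counts. SNHG7, without the motif, rose by 0.96 ± 0.10, SNHG8 by 0.92 ± 0.09, SNHG5 by 0.77 ± 0.07 (its deposited value is 0.765), SNHG12 by 0.69 ± 0.12 and ZFAS1 by 0.57 ± 0.08 in the authors' deposited table. SNHG4 and SNHG16 were the smaller changes, at 0.33 ± 0.11 and 0.20 ± 0.07. GAS5 and SNHG1, growth-linked hosts, rose by 0.51 ± 0.07 and 0.56 ± 0.07, and NEAT1, the scaffold of nuclear paraspeckles, by 0.82 ± 0.12 in the authors' deposited table. SNHG8 and NEAT1 overlap annotated small RNAs on their own strand.

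The motif CTTT was searched on both strands, beginning within 10 bases of the start. On the transcribed strand it was in 7 of the 14 called hosts that have a sequence (50%), in 7 of 19 listed hosts, in 881 of 9799 listed genes with a sequence (8.99%) and in 2813 of 27305 entries of the promoter table (10.3%). On the opposite strand it was in none of the 14 called hosts and in 8.04% of the promoter table. It was in 41 of 67 cytosolic ribosomal protein genes with a sequence (61.2%), and of the 83 listed 6 were called higher (7.23%) and 2 lower, with a median fold change of 0.04. A match to 4 letters is a description of the window, not of a bound factor.

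Genes of lipid synthesis fell in NCIH520. Of 13 listed genes of fatty acid synthesis, 9 were called lower (69.2%, against 12.3% of all genes) and none higher, with a median of -0.28. FADS1 and FADS2, the desaturases of polyunsaturated fatty acids, fell by 0.82 ± 0.07 and 0.46 ± 0.07 in the authors' deposited table. ACACA, the acetyl-CoA carboxylase that commits carbon to fatty acids, fell by 0.48 ± 0.07 (adjusted p 8.91e-10, authors' deposited table), SCD, the stearoyl desaturase, by 0.46 ± 0.06 and ACLY, which supplies cytosolic acetyl-CoA, by 0.20 ± 0.07. In cholesterol synthesis 9 of 27 were called lower (33.3%) and 1 higher, with a median of -0.21. INSIG1, the sterol sensor that restrains SREBP processing, fell by 0.59 ± 0.08 and SQLE, squalene epoxidase, by 0.39 ± 0.07 in the authors' deposited table.

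Genes that burn fuel in mitochondria also lay lower, by smaller amounts. Of 27 listed genes of fatty acid oxidation, 6 were called lower (22.2%, against 12.3% of all genes) and none higher. Beside HADH and CPT2 these included ECI2, ECI1 and ACADVL, between -0.38 and -0.24 in the authors' deposited table. Of 76 nuclear genes of the respiratory chain, 28 were called lower (36.8%) and 1 higher, with a median of -0.16. They came from several complexes. SDHA, of complex II, fell by 0.37 ± 0.08, UQCR11 and UQCRQ, of complex III, by 0.50 ± 0.07 and 0.35 ± 0.07, and ATP5MG, of the ATP synthase, by 0.47 ± 0.07 in the authors' deposited table. NDUFV3 and NDUFA6, of complex I, fell by 0.40 ± 0.11 and 0.33 ± 0.08, and UQCRC2 of complex III rose by 0.23 ± 0.07. The 13 genes encoded in mitochondrial DNA had a median of -0.14. Of them MT-CO2, MT-CO1 and MT-ND4 were called lower, at -0.20, -0.16 and -0.16 in the authors' deposited table. Mitochondrial ribosomal protein genes were called in both directions (14 lower, 7 higher of 78), a share of 26.9% beside 23.8% of all genes. In glycolysis and hypoxia, 9 of 33 were called lower and 5 higher, or 42.4% beside 23.8% of all genes. LDHA, lactate dehydrogenase, fell by 0.45 ± 0.07 and PFKP, a phosphofructokinase, by 0.65 ± 0.10. The lactate exporter SLC16A3 rose by 0.91 ± 0.20 in the authors' deposited table.

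Targets of ATF4, the transcription factor of the amino acid and endoplasmic reticulum stress response, moved upward. Of 28 listed, 14 were called higher (50%, against 11.4% of all genes) and none lower, with a median of 0.24. PCK2, an ATF4 target outside the list, was at -0.10 ± 0.12 and was not called. NUPR1, a stress-induced nuclear protein, rose by 2.02 ± 0.24 in the authors' deposited table, from about 133 to 538 normalized counts. CHAC1, which degrades glutathione, and SESN2, an inhibitor of mTORC1, each rose by 1.19 ± 0.16, DDIT4, another inhibitor of mTORC1, by 0.83 ± 0.11, TRIB3, a pseudokinase, by 0.79 ± 0.11 and ATF4 itself by 0.48 ± 0.07 in the authors' deposited table. PHGDH, the first enzyme of serine synthesis, rose by 0.29 ± 0.06. ASNS and PSAT1, amino acid enzymes commonly counted as ATF4 targets, were at 0.16 ± 0.10 and 0.14 ± 0.07 in the authors' deposited table and were not called, and DDIT3 (CHOP), also not called, was at 0.23 ± 0.15. In the list of the unfolded protein response 6 of 21 were called higher and 2 lower, or 38.1% beside 23.8% of all genes. ERN1 was at 0.48 ± 0.14 and the chaperone gene HSP90B1 at -0.23 ± 0.07.

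**Figure D3:**
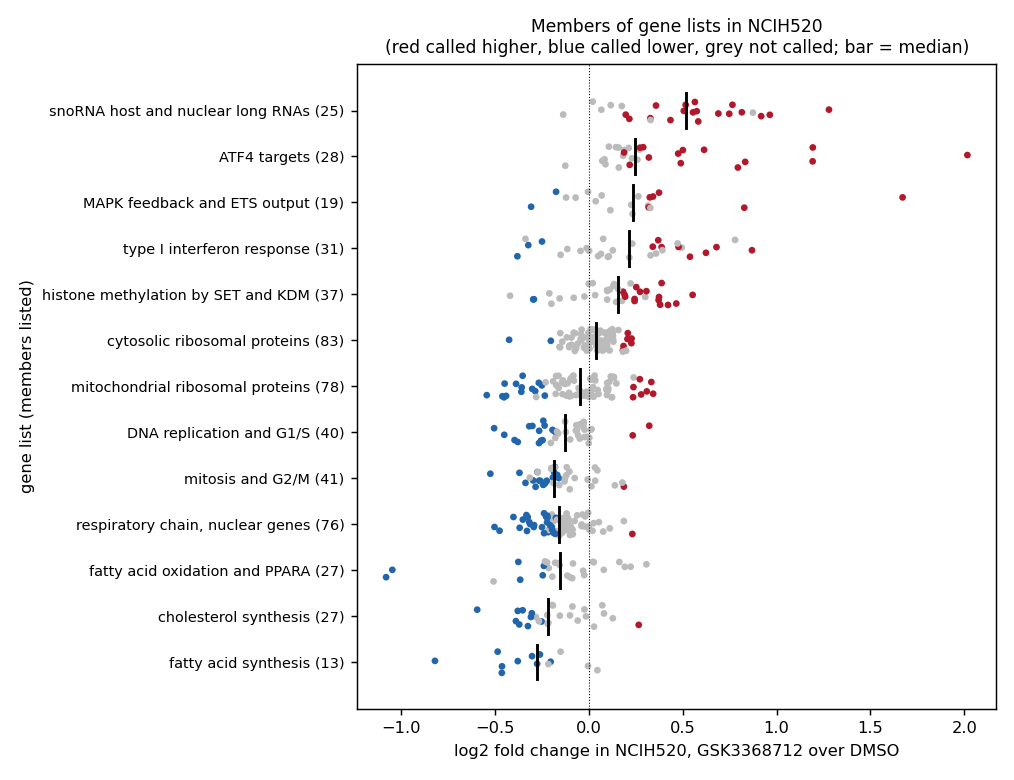
Log2 fold change in NCIH520 of each listed member of 13 gene lists (points: red called higher, blue called lower, grey not called), with the list median as a black bar and the number of listed members in parentheses. The snoRNA hosts and ATF4 targets lie mostly to the right of 0 (medians 0.52 and 0.24), and the lipid, respiratory and cell cycle lists mostly to its left (medians -0.28 to -0.12).

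Genes of cell division fell slightly. Of 41 genes of mitosis and G2/M, 17 were called lower (41.5%, against 12.3% of all genes) and 1 higher, with a median of -0.18. CENPA, the centromeric histone, fell by 0.52 ± 0.13, MAD2L1 and BUB1, of the spindle checkpoint, by 0.37 ± 0.07 and 0.34 ± 0.07, and CCNB1, the mitotic cyclin, by 0.27 ± 0.07 in the authors' deposited table. The member called higher was MKI67, the gene of the Ki-67 proliferation antigen, at 0.19 ± 0.06 (adjusted p 0.0181, authors' deposited table). MKI67 was called lower in 5 of the other lines. Of 40 genes of DNA replication, 14 were called lower (35%) and 2 higher, with a median of -0.12. PCNA, the polymerase clamp, fell by 0.45 ± 0.07, CCNE2 by 0.50 ± 0.14 and the ribonucleotide reductase gene RRM2 by 0.30 ± 0.08, and POLE and CDT1 rose by 0.32 ± 0.09 and 0.23 ± 0.09 in the authors' deposited table. Of 32 genes of homologous recombination and Fanconi repair, 7 were called lower (21.9%, against 12.3% of all genes) and 1 higher. In all 25% were called, beside 23.8% of all genes.

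Inhibitors of the cell cycle and p53 targets were called in both directions. Of 27 listed p53 targets 18.5% were called, and of 14 BCL2 family members 14.3%, both under the 23.8% of all genes. Of the p53 targets, CDKN1A (p21) rose by 0.75 ± 0.27 (adjusted p 0.0272, authors' deposited table) from about 300.2 to 505 normalized counts, and SESN2 rose as given above. DDB2, CCNG1 and XPC fell by 0.78 ± 0.15, 0.49 ± 0.08 and 0.43 ± 0.10 in the authors' deposited table. CDKN2B (p15) rose by 0.56 ± 0.20 and CDKN2C (p18) fell by 0.65 ± 0.14. In the BCL2 family of apoptosis regulators, BIK rose by 0.98 ± 0.38 and BCL2L13 fell by 0.26 ± 0.08, and the other 12 of 14 listed members were not called.

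Of the 5 listed enzymes of the type that the compound targets, 2 were called, both lower (40%, against 12.3% of all genes). The median of the 5 was 0.04, and PRMT2, at 0.19 ± 0.11, was not called. PRMT1 was at 0.04 ± 0.08 (95% interval -0.12 to 0.20) and CARM1 at 0.15 ± 0.08 in the authors' deposited table, and neither was called. PRMT3, which methylates a ribosomal protein, and PRMT6, a nuclear enzyme, were called lower, at -0.31 ± 0.08 and -0.32 ± 0.12. Of the other arginine methyltransferases and partners, COPRS, a cofactor of PRMT5, fell by 0.65 ± 0.08, PRMT9 fell by 0.46 ± 0.16 and RIOK1, a PRMT5 adaptor, rose by 0.43 ± 0.10 in the authors' deposited table. MTAP, whose loss raises the cell's dependence on PRMT5, was listed and fell by 0.33 ± 0.08. In the methionine cycle, MTR, methionine synthase, fell by 0.47 ± 0.08 and its reductase MTRR rose by 0.37 ± 0.10 in the authors' deposited table. ARG2, an arginase, fell by 0.84 ± 0.11, and ASS1, which makes arginine from citrulline, rose by 0.65 ± 0.12. Among 8 readers of methylarginine only SMN2 was called, at 0.21 ± 0.08, and its near-identical copy SMN1 makes that assignment uncertain.

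Among chromatin genes, more histone lysine methyltransferases and demethylases were called higher than lower. Of 37 listed, 15 were called higher (40.5%, against 11.4% of all genes), 2 lower and 20 not called, with a median of 0.16. SETD1A, a catalytic subunit of H3K4 methylation complexes, rose by 0.55 ± 0.10, KMT2E by 0.47 ± 0.09, KDM4B by 0.42 ± 0.09, KMT2D by 0.37 ± 0.08 and SETD2, which places H3K36 trimethylation, by 0.37 ± 0.09 in the authors' deposited table. NSD2 and SMYD2 fell by 0.29 ± 0.06 and 0.30 ± 0.07. HDAC5, a signal-responsive class II deacetylase, rose by 0.89 ± 0.14 and HDAC7 by 0.39 ± 0.12, while HDAC4 fell by 0.23 ± 0.09 in the authors' deposited table. HDAC5 was on a list already chosen for moving in all lines of these data, so its direction is no independent support. TET2, which oxidises methylcytosine, rose by 0.52 ± 0.11 and MORC2, a silencing ATPase, by 0.66 ± 0.08. DNMT1, the maintenance DNA methyltransferase, was at -0.12 ± 0.07 (95% interval -0.27 to 0.02) in the authors' deposited table and was not called here. Of the histone genes, 7 of 22 were called lower (31.8%, against 12.3% of all genes) and 1 higher. The falls were led by the linker histone H1FX at -0.68 ± 0.07 (deposited value -0.675) and H2AFY, which encodes macroH2A, at -0.59 ± 0.07.

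RNA-binding proteins that carry methylated arginines were called in both directions. Of 40 hnRNP, FET and RGG genes, 7 were called higher (17.5%) and 4 lower (10%), shares near those of all genes. HNRNPA3 fell by 0.39 ± 0.07, and CHTOP, an mRNA export factor bound by PRMT1, rose by 0.39 ± 0.07 in the authors' deposited table. Of 25 genes of SR proteins and splicing kinases, 6 were called higher (24%, against 11.4% of all genes) and none lower. Among them CLK4 rose by 0.46 ± 0.15, SON by 0.37 ± 0.07 and SRRM2 by 0.35 ± 0.07.

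Some genes of the FGF and MAPK pathways were called higher. FGFR1 rose by 0.26 ± 0.08 (adjusted p 0.00458, authors' deposited table), from an implied 66974 to 80423 normalized counts. FGFR3 and FGF13 rose by 0.59 ± 0.11 and 0.48 ± 0.12, and the other 8 of 11 listed FGF genes were not called. The called members, all higher, were 27.3% of that list, beside 23.8% of all genes called either way and 11.4% called higher. The median of the FGF list was 0.003. Of 19 MAPK feedback and ETS genes, 6 were called higher (31.6%, against 11.4% of all genes) and 2 lower, with a median of 0.23. SPRED3 and SPRY4, inhibitors of RAS signalling, rose by 1.67 ± 0.28 and 0.37 ± 0.07 in the authors' deposited table. CCND1, cyclin D1, rose by 0.33 ± 0.07 (deposited value 0.325) and the ETS factor ETV4 by 0.32 ± 0.10. DUSP6, a phosphatase of ERK and a common readout of its activity, went the other way and fell by 0.31 ± 0.07 in the authors' deposited table. In the cAMP pathway 5 of 28 were called higher and 5 lower, or 35.7% beside 23.8% of all genes. With PRKACB, the adenylyl cyclases ADCY3, ADCY9 and ADCY7 fell by 0.91 ± 0.12, 0.53 ± 0.15 and 0.32 ± 0.08. ADCY6 and the phosphodiesterase PDE4A rose by 0.39 ± 0.10 and 0.98 ± 0.24 in the authors' deposited table.

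Interferon response genes were called in both directions, with more of them higher. Of 31 listed, 8 were called higher (25.8%, against 11.4% of all genes) and 3 lower (9.68%, against 12.3%), with a median of 0.22. That median was 0.10 among the 75% of genes with the highest expression. OAS1, an antiviral synthetase, rose by 0.87 ± 0.19, SP110 by 0.68 ± 0.22, IFI6 by 0.62 ± 0.23 and IRF1 by 0.48 ± 0.16 in the authors' deposited table. STAT2, which carries the interferon signal to the nucleus, fell by 0.32 ± 0.11. Classical members such as IFIT1, IFI44 and OAS2 had no values in this line. Of 16 listed genes tied to nucleic acid sensing, 1 was called higher and 2 lower, or 18.75% beside 23.8% of all genes. The adaptor MAVS rose by 0.37 ± 0.08, and IFI16 and RNASEH2A fell by 0.60 ± 0.11 and 0.49 ± 0.12 in the authors' deposited table.

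In antigen presentation, 5 of 21 genes were called higher (23.8%, against 11.4% of all genes) and 1 lower (4.76%, against 12.3%). ERAP2, a peptide-trimming enzyme, rose by 1.06 ± 0.23, HLA-E by 0.39 ± 0.10 (deposited value 0.385), HLA-B by 0.28 ± 0.11, HLA-C by 0.24 ± 0.07 and B2M, the shared light chain of class I molecules, by 0.18 ± 0.07 in the authors' deposited table. The chaperone gene PDIA3 fell by 0.20 ± 0.06. HLA genes are alike in sequence, so their reads may be split between them. CD274 (PD-L1) had no value in this line. Of 12 listed checkpoint and natural killer ligands, the stress ligand MICA and the anti-phagocytic CD47 fell by 0.34 ± 0.11 and 0.24 ± 0.09, and BTN3A1 rose by 0.37 ± 0.14 in the authors' deposited table.

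Lineage genes were called in both directions. SOX2 was at -0.10 ± 0.07 in the authors' deposited table (95% interval -0.23 to 0.03) and was not called. The squamous genes KRT15 and TRIM29 rose by 1.26 ± 0.35 and 0.95 ± 0.13, DSC2 rose by 0.35 ± 0.12, and the other 9 of 12 listed squamous genes were not called. The called members were 25% of that list, beside 23.8% of all genes called either way and 11.4% called higher. The median of the squamous list was -0.03. Of 19 listed glandular genes, 3 were called higher and 1 lower, or 21.1% beside 23.8% of all genes. Among them the mucin MUC1 rose by 1.58 ± 0.39 and the claudin CLDN3 fell by 0.91 ± 0.19 in the authors' deposited table. Of the 18 listed neuroendocrine and neural genes, 4 were called higher and 4 lower, or 44.4% beside 23.8% of all genes. SYP, SCG2 and ELAVL3, of vesicles and neuronal RNA binding, rose by 0.92 ± 0.23, 1.00 ± 0.23 and 1.17 ± 0.31, while INSM1, a transcription factor of neuroendocrine cells, and NCAM1 fell by 0.61 ± 0.16 and 0.52 ± 0.13 in the authors' deposited table.

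In the developmental pathways, TGFB2 fell by 0.88 ± 0.08 (adjusted p 6.41e-26, authors' deposited table) while TGFB1 rose by 0.83 ± 0.19. BMP7 fell by 0.48 ± 0.09, and the inhibitor of differentiation ID2 and the signal transducer SMAD3 rose by 0.46 ± 0.11 and 0.39 ± 0.08 in the authors' deposited table. In the WNT pathway 5 of 23 were called higher and 2 lower, or 30.4% beside 23.8% of all genes. NOTUM, a secreted WNT inhibitor and pathway target, rose by 0.60 ± 0.08, the receptor LGR6 by 0.77 ± 0.12, CTNNB1 (beta-catenin) by 0.36 ± 0.07 and APC by 0.47 ± 0.08, and the antagonist SFRP1 fell by 0.54 ± 0.11. NOTCH1 and its ligand DLL1 rose by 0.46 ± 0.09 and 0.72 ± 0.25 in the authors' deposited table (deposited value of the latter 0.715). Genes of the primary cilium, through which SHH signals, were called lower in 7 of 44 and higher in 2, or 20.5% in all, a share near the 23.8% of all genes. TMEM107 and B9D1, of the ciliary transition zone, fell by 1.52 ± 0.26 and 1.00 ± 0.15 in the authors' deposited table, and the hedgehog target GLI1 had no value.

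Genes that share a locus with another transcript were read with their partners. DGCR11, which lies within DGCR2, rose by 2.34 ± 0.35 while DGCR2 was at 0.07 ± 0.10, and GABPB1-IT1 rose by 0.75 ± 0.14 while GABPB1 was at -0.08 ± 0.09 in the authors' deposited table. The readthrough transcript ATP6V1G2-DDX39B rose by 1.77 ± 0.41 and DDX39B, an RNA helicase of mRNA export, by 0.29 ± 0.07. TYMSOS fell by 1.75 ± 0.42 beside TYMS, thymidylate synthase, at -0.17 ± 0.09, and TMPO-AS1 and TMPO both fell, by 1.71 ± 0.19 and 0.23 ± 0.06 in the authors' deposited table. Of 19 such genes 8 were called higher and 4 lower, and these pairs were chosen on earlier results of these data. The median of the list was 0.07 in NCIH520, below the range of 0.13 to 0.52 in the 9 other lines. The 16 genes already chosen for moving in all lines had a median of -0.64 in NCIH520, nearer to 0 than in the others (-1.40 to -0.68). How reads were shared within a pair was not tested.

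NCIH520 was then compared with the other lines. Over the 9339 genes with values in all 10, the SD of its fold changes across genes was 0.287, the lowest of the 10, with the others between 0.312 and 0.708. Its response was most like that of LK2, another LUSC line, with a Pearson r across genes of 0.57, and least like that of NCIH1563, with 0.30. Genes share libraries and are not independent, so these are descriptions. Of the genes called in NCIH520 and listed in LK2, 1773 of 3090 were called in the same direction there and 118 in the opposite one. Seen from LK2, which made 4989 calls among genes listed in both, the same 1773 are a smaller share. Of the 1070 called higher in NCIH520 and listed in every line, 908 were called higher in at least 1 other line, and of the 1263 called lower 1151 were called lower elsewhere. The other lines called from 1.66% (NCIH522) to 48.1% (NCIH1563) of their listed genes in either direction, LK2 39.4%. The share of all genes called in at least 1 other line was not computed, so these counts do not measure agreement beyond it.

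**Figure D4:**
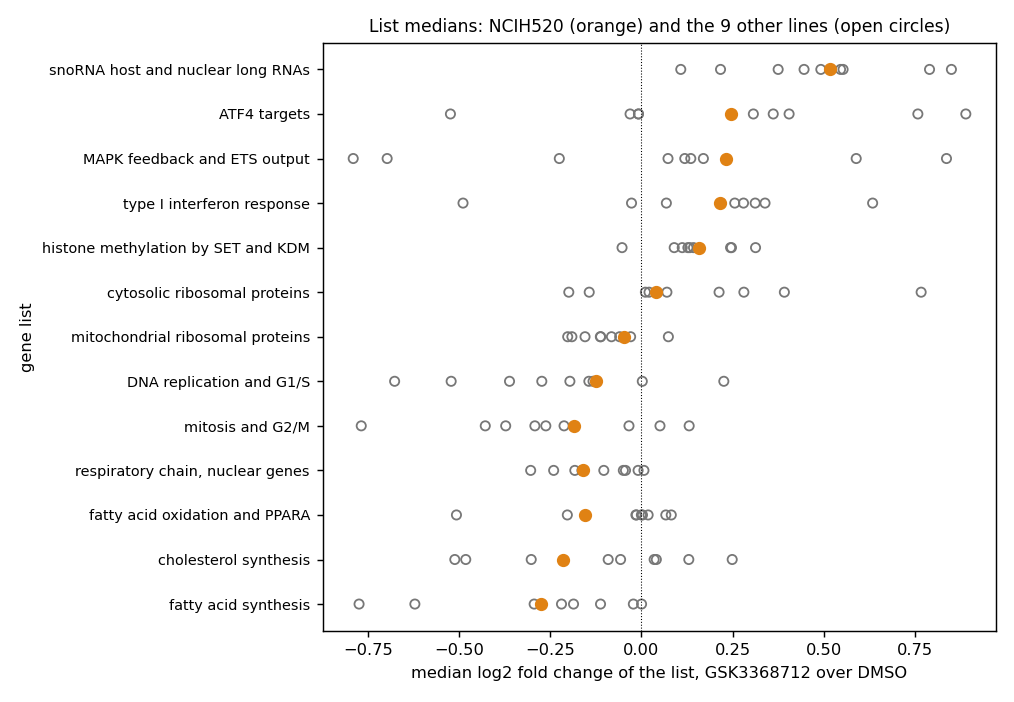
Median log2 fold change of the listed members of 13 gene lists in NCIH520 (orange) and in each of the 9 other lines (open circles). The NCIH520 medians fall inside the range of the other lines for all 13 lists shown, which leave out the overlapping pairs, where NCIH520 was lower than every other line (0.07 against 0.13 to 0.52).

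No gene could be called different between NCIH520 and the other lines as a group. With limma, 0 of 9339 genes (0%) passed an adjusted p of 0.05 for NCIH520 against the 9 other lines, and 47 had an unadjusted p under 0.05. Against the 5 other LUSC lines it was 0 of 10611 (0%), with 340 unadjusted. A z test against the random-effects mean of the 9 lines, which counts only the standard errors, called 316. With NCIH520 as the single line on its side, limma can find only large departures. It also assumes that NCIH520 varies like the other lines, while the SD of its fold changes across genes, 0.287, was the lowest of the 10. The unadjusted counts are therefore not to be read as departures. A gene that kept apart in sign was PCYOX1L, a prenylcysteine oxidase-like gene chosen after its values were seen. It was called lower in NCIH520, at -0.28, and lay between 0.40 and 1.05 in the 9 other lines in the authors' deposited table (limma adjusted p 1).

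Against LK2 alone, a z test on the difference of the authors' fold changes called 1519 of 12651 genes (12%), 665 of them more positive in NCIH520 and 854 more negative. Of the 1519, 1072 had a fold change nearer to 0 in NCIH520 than in LK2. This test uses 2 lines, and its errors cover the spread between libraries only. The genes that stood farthest apart were ones with high fold changes in LK2. CHGB, a granule protein of neuroendocrine cells, was at -0.16 in NCIH520 and 3.02 in LK2, a difference of -3.18 (adjusted p 2.64e-29, z test), and its level in NCIH520 was 11754 normalized counts per kilobase. PPARGC1A, a coactivator of mitochondrial genes, was at -0.21 against 2.90, and PCK2, the mitochondrial form of PEPCK and an ATF4 target, at -0.10 against 2.46 (adjusted p 9.1e-48, z test) in the authors' deposited table. SDSL and the pseudogene HMGB1P24 were at 1.36 and 1.89 in NCIH520 and at 4.28 and 4.83 in LK2. TMEM205, at -0.20 against 2.56, overlaps RAB3D on its strand.

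In the other direction, SMOC2 fell in both lines, but by 1.42 in NCIH520 against 4.21 in LK2, a difference of 2.79 (adjusted p 3.62e-07, z test). ST6GALNAC3 and ST6GAL2, sialyltransferases, were at -0.39 and -0.29 in NCIH520 and at -3.20 and -2.30 in LK2 in the authors' deposited table. LDLRAD4, an inhibitor of TGF-beta signalling, was at 0.26 against -2.34, and INHBB, a subunit of activin B, at 0.18 against -1.97. SPON2, a secreted matrix protein, was at 0.74 against -1.14 (adjusted p 0.0267, z test).

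**Figure D5:**
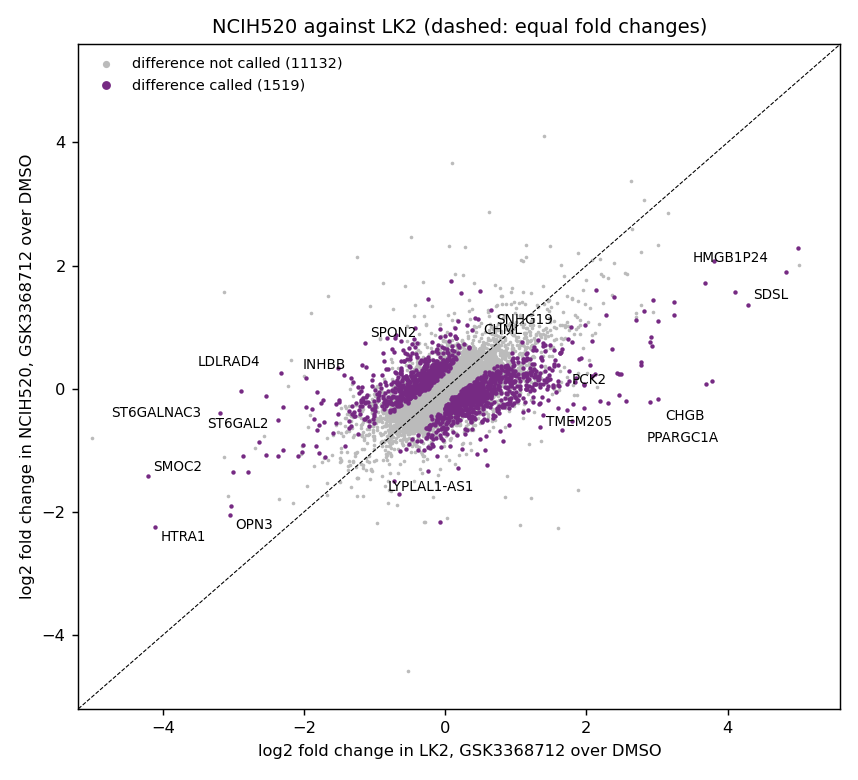
Log2 fold change in NCIH520 (vertical axis) against that in LK2 (horizontal axis) for 12651 genes listed in both, with genes whose difference was called by the z test in purple (1519) and equal fold changes on the dashed line. Of the purple genes, 1072 lie nearer to 0 in NCIH520 than in LK2, with CHGB and PPARGC1A far to the right and SMOC2 and ST6GALNAC3 far to the left.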

How the data were processed

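Per the labels' protocols, RNA of NCIH520 was prepared with the TruSeq Stranded mRNA kit and sequenced as paired reads. Per the submitters' processing notes, reads were quantified with Salmon 0.12.0 on GRCh38 and compared with DESeq2, whose version is not given in the sources used here, and genes at an FPKM of at most 1 were left out of a comparison. The authors' deposited table gives log2 fold changes with standard errors, an adjusted p-value, a test statistic, which is a score equal to fold change over error within 0.101, a mark, which is a score, and mean normalized counts, a signal whose sum in NCIH520 was about 63470200. Whether the fold changes were shrunken is not stated. Values per library were not analysed here, so no value per sample, counting interval or refit is given.

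From these, genes were called at the authors' adjusted p of at most 0.05, and unadjusted p-values were taken from the deposited statistic by the normal distribution. Group levels were computed from the deposited mean count and fold change, taking 2 libraries per arm. Gene symbols are those of the deposited table, and of 14117 gene IDs 14101 (99.9%) matched GENCODE 29, which gave positions and overlaps. NCIH520 was compared with other lines by limma 3.58.1 in R 4.3.3 on 1 fold change per line, and with LK2, the line of highest Pearson r, by a z test on the difference of fold changes, both with Benjamini-Hochberg adjustment. Both tests were checked on simulated data. There limma against the 9 other lines recovered 21% of log2 shifts of 1 and 67% of shifts of 2. The z test against LK2 recovered 49% of shifts of 0.5 and 80% of shifts of 1. Other steps ran in Python 3.11.15. Named genes were the 15 largest rises and falls among called genes at or above median expression, the 10 largest statistics each way, 6 called long non-coding genes each way, up to 6 members of each gene list by adjusted p (all members of lists of 8 or fewer), a short set of enzyme, lineage and immune genes and, against LK2, 6 each way. Further list members given by value were chosen after their values were seen. The lists and rules were chosen with earlier results of these data known. Alternatives changed the adjustment, expression filter, centring, overlaps, lines left out and error model. Some genes are not reported here.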

Additional observations from a re-analysis of the deposited data

Results flagged for a closer look

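Dixon's test for an outlying value marked NCIH520 against the 9 other lines in 2 genes. The fold change of SETD1A was 0.553 (log2), against -0.12 to 0.20 in the other lines of the authors' deposited table. That of PCYOX1L, a gene chosen after its values were seen, was -0.28, against 0.40 to 1.05. The gap to the nearest line, divided by the whole range, was 0.519 for SETD1A and 0.513 for PCYOX1L, past the 95% critical value of Dixon's test for 10 values. They were 2 of 1143 genes with values in all lines that were checked in this way, and NCIH520 stood apart in none of 56 gene lists. By chance some line is marked in about 1 in 20 such sets of 10, whichever line it is, so the counts for NCIH520 alone are not to be read against that share. With 1143 genes checked, 2 marks can arise by chance.

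Fold changes of 12 genes differed between NCIH520 and LK2 by the z test of the difference. The differences, NCIH520 minus LK2, were -3.18 for CHGB, -3.11 for PPARGC1A, -2.94 for HMGB1P24, -2.92 for SDSL, -2.75 for TMEM205 and -2.56 for PCK2. They were 1.89 for SPON2 (1.885 unrounded), 2.01 for ST6GAL2, 2.15 for INHBB, 2.59 for LDLRAD4, 2.79 for SMOC2 and 2.80 for ST6GALNAC3. These are the 6 largest differences in each direction by the naming rule, among 1519 that passed.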

How the results depend on the processing

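The counts of called genes in NCIH520 moved most with a fold requirement: the authors' mark, which also asks for a log2 change of at least 1, left 173 higher and 117 lower. Under the other alternatives (recomputed adjustment, the top 75% by expression, centring, genes listed in all 10 lines with p adjusted again over them, and no genes overlapping a listed gene on the same strand, the last chosen after seeing the data) the counts were 1093 to 1614 higher and 1280 to 1787 lower. Against the 9 other lines, limma called 0 genes under each alternative run, including leaving out each line in turn (0 to 0), and so it did against the LUSC lines. The z test against the random-effects mean called 316, and 23 with the spread between lines added to its variance, which was chosen after seeing the data. Against LK2, 1348 genes were called among the top 75% by expression and 1529 after centring, beside 1519. Of 56 list medians, centring changed the sign of 1, the expression filter of 3 and the mean in place of the median of 6, all of lists with medians within 0.09 of 0. No paired analysis was possible because the table holds no values per library, and for the same reason no replicate could be left out. Depth per library was not analysed. Genes in the lowest quartile by count had a median standard error of 0.324, so their small changes were hard to detect, and 13.1% of them were called.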

Other observations

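Genes with values in NCIH520 and in no other line numbered 353, of which 32 were called higher and 22 lower (15.3%, beside 23.8% of all listed genes). The following were chosen after their values were seen. SEMA3G, a secreted semaphorin, was at 0.81 in the authors' deposited table. OLIG1, a transcription factor of oligodendrocytes and other neural cells, was at -0.82, LIPC, hepatic lipase, at -1.27 and the cell adhesion gene PCDH17 at -0.58. Some genes went against the lines in general: FTH1, the ferritin heavy chain, was called lower in NCIH520, at -0.21, and GSN, the actin-severing protein gelsolin, also, at -0.30, while each was called higher in 5 other lines.

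Of 1326 long non-coding genes, 125 were called higher (9.43%) and 89 lower (6.71%), with 1426 and 1623 of 11913 protein-coding genes called. Their median mean count was 124, against 1559 over all listed genes. Among the lysosomal genes, 5 of 34 were called higher and 7 lower, or 35.3% beside 23.8% of all genes. The transcription factor MITF was at 0.86 and the glycosidases GLA and NAGLU at -0.55 and -0.66 in the authors' deposited table. Of 29 NRF2 targets, 2 were called higher and 6 lower, or 27.6% beside 23.8% of all genes. Among them were the transporter ABCC2 at 0.62 and PIR at -0.43.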
